A study of Mus musculus with 8 samples.

Results

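Messenger RNA of 10 collagen chains was measured in Min6, a line of mouse insulinoma cells that resemble the insulin-producing beta cells of the pancreas, with and without an expression plasmid for the zinc finger transcription factor Zac1. The chains are those of collagen VI (Col6a1, Col6a2, Col6a3), collagen VIII (Col8a1, Col8a2), collagen IX (Col9a1, Col9a2, Col9a3), collagen XII (Col12a1) and collagen XVI (Col16a1). They were picked by gene symbol, with earlier results of these data known. All 10 were found among the 23100 genes of the count table. Cells were transfected transiently with pRK5-Zac1 (4 libraries) or, as the control, with pRK5-NLSeGFP, which encodes a nuclear green fluorescent protein (4 libraries). RNA was taken 16 h later from both groups, and the libraries are numbered 1, 2, 3 and 5 in each. The share of cells that took up plasmid is not given in the sources used here. The series calls the libraries biological replicates, and how the cultures were separated is not given, so the p-values measure the spread between these libraries.

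Every collagen molecule is a trimer of chains wound around each other. Collagen IX is built from 3 different chains, decorates the surface of the cartilage collagen fibril and is best known there, while collagens XII and XVI decorate fibrils as trimers of a single chain. Collagen VI forms beaded microfibrils around cells and needs the Col6a1 and Col6a2 chains together with a long chain, usually Col6a3. Collagen VIII is a short-chain collagen of network type, found in the cornea and in vessel walls, whose chains can assemble with themselves or with each other. In the pancreas such collagens belong mainly to the matrix around and between islet cells, much of it made by cells other than beta cells.

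The libraries held between 30.5 and 42.4 M (mega) counts, so that 1 count corresponded to 0.0236 to 0.0327 CPM (counts per M counts, with totals scaled by TMM). Plagl1, the gene that encodes Zac1, stood between 67.7 and 85.4 CPM in the control libraries and between 4120 and 5790 CPM in the Zac1 libraries, with plasmid and endogenous transcripts counted together. The libraries numbered 5 stood furthest from the others of their group, judged by the chi-square of their counts over its degrees of freedom, which was 15.61 to 29.84 in pairs that include one of them and 8.906 to 12.34 in the other pairs. Differential expression was tested with edgeR's quasi-likelihood test on 14331 genes, and "called" means a Benjamini-Hochberg adjusted p under 0.05 over all of them. In these bulk libraries more RNA per cell and more cells with RNA cannot be told apart.

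Of the 10 chains, 8 had enough counts to be tested and 3 were called, all of them higher with Zac1, where 2.15% of all tested genes were called higher. The 3 are Col9a2, Col6a2 and Col8a2, 1 chain from each of the collagens that have several chains here. That pattern rests on the threshold and on the depth. Col9a3 missed the threshold (edgeR adjusted p = 0.0591) and Col6a1 had too few counts, yet both were higher in every Zac1 library than in any control library. All 3 called chains passed the filter on low counts through the Zac1 libraries, since none of their control libraries (1 of 4 for Col8a2) reached its limit of 0.287 CPM. The count over tested chains is therefore raised by the filter. The chains were also chosen with earlier results of these data known, so their shares are not those of a blindly drawn set. Without the filter 4 of all 10 chains were called, Col9a3 being the other, against 2.11% of 19900 genes called higher. DESeq2 also called these 4 (2.38% of genes higher). As to decreases, 0 chains were called lower by edgeR (0.0349% of tested genes were), DESeq2 or limma-voom, and 0 were lower at an unadjusted p under 0.05. In the fit without the filter the median log2 fold change was 0.92 over the 10 chains and -1.82e-05 over all 19900 genes. There, all Zac1 libraries were above all control libraries in 5 of the 10 chains and in 4.17% of the genes (4 of 8 chains and 4.39% of genes after the filter, which favours such chains).

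**Figure D1:**
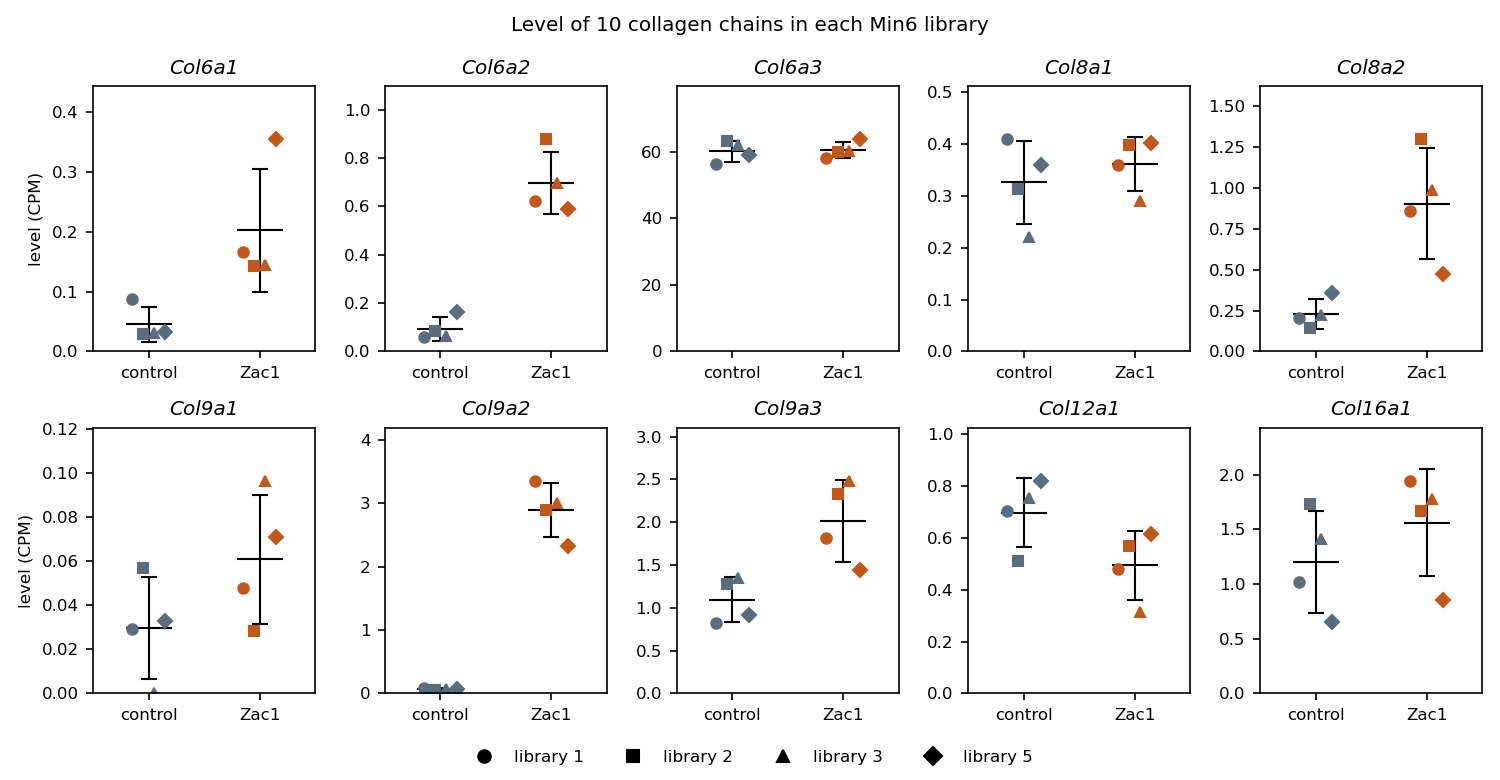
Level of each of the 10 collagen chains in CPM (linear axes from 0, a different scale in each panel) in the 4 control and 4 Zac1 libraries, with the mean (bar) and SD (whiskers) of each group and 1 symbol per library number. The Zac1 libraries of Col9a2 lie between 2.32 and 3.35 CPM, above control libraries of at most 0.0877 CPM, while the Col6a3 groups overlap near 60 CPM.

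The stretches upstream of the start of the 3 chains called in these data are shown because Zac1 is known to bind GC-rich sites, among them the palindrome GGGGCCCC and runs of G. Each is the 250 bases before the outermost RefSeq start on the build GRCm38.p6, 5′ to 3′ on the strand of the gene, and capitals mark runs of at least 4 G or at least 4 C. Col9a2 lies at chr4:121039316-121039565 (plus strand), Col6a2 at chr10:76623631-76623880 (minus strand) and Col8a2 at chr4:126286544-126286793 (plus strand).
Col9a2: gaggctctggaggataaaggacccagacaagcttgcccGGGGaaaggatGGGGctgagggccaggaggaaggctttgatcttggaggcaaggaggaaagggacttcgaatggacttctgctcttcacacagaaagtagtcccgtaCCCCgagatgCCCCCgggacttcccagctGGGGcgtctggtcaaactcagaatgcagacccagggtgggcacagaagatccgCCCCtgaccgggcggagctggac
Col6a2: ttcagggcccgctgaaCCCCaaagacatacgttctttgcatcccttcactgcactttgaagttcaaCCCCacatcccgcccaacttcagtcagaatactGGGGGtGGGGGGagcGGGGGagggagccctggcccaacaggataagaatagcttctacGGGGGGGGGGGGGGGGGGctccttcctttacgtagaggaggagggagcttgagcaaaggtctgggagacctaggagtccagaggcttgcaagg
Col8a2: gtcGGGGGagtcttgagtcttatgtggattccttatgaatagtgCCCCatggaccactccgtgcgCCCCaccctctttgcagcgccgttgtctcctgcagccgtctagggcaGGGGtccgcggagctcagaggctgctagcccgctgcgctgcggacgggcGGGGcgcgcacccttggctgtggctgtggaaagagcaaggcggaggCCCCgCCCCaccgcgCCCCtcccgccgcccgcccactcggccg
RefSeq promoter windows of 300 bases (250 before and 50 after a start) were found for 8 of the 10 members, 10 windows in all, and not for Col9a3 and Col12a1. GGGGCCCC, which reads the same on both strands, was in 0 of the 10 windows and in 1.08% of all 32851 windows. Runs of at least 4 G or 4 C were in all 10 member windows and in 86.4% of all windows. There were 9 runs in the Col9a2 window, 11 in that of Col8a2, and 10 and 6 in those of the 2 Col6a2 starts, the window with 6 being that of the start shown. The windows of the members that were not called held 3 to 6 runs, and the median of all windows was 3. Among them, Col6a1 (3 runs) and Col9a1 (4 and 6) were too low to be tested. Col6a1 stood higher in every Zac1 library than in any control library. GC content differed between windows too, with 71.7% for Col8a2 and 74.3% for Col16a1, which held 4 runs. Whether the number of runs goes with the change was not tested. These are matches of letters, and binding was not measured.

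Collagen IX held the largest change and the clearest difference between chains. Col9a2, the α2 chain, had 3, 2, 2 and 2 counts in control libraries 1, 2, 3 and 5, and 140, 102, 125 and 98 counts in the corresponding Zac1 libraries. As levels these are 0.0877, 0.0568, 0.0628 and 0.0654 CPM against 3.35, 2.89, 3.01 and 2.32 CPM. The control libraries were at or under 3 counts, so Col9a2 went from near silence to a low but steady level, with no overlap between the groups. The mean rose 42.4-fold, from 0.0682 ± 0.0135 to 2.89 ± 0.429 CPM (SD, n = 4 each; log2 5.34 ± 0.27, SE; edgeR adjusted p = 3.94e-08). With 9 control counts in all, the counting interval of the pooled ratio is wide, 22.1 to 93.2 (95%, from an exact binomial interval of the counts, counting error only).

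Col9a3, the α3 chain, was already expressed in control cells. Its control libraries stood at 0.819, 1.28, 1.35 and 0.916 CPM and its Zac1 libraries at 1.82, 2.33, 2.48 and 1.44 CPM. Every Zac1 library was above every control library, although the lowest Zac1 library and the highest control library, 1.44 and 1.35 CPM, lay close together. The difference of Col9a3 was 1.85-fold (log2 0.88 ± 0.22, SE) and missed the threshold (edgeR adjusted p = 0.0591). It passed in DESeq2 (adjusted p = 0.0212), without the filter on low counts (edgeR adjusted p = 0.0207), with library totals in place of TMM (edgeR adjusted p = 0.048) and without Zac1 library 5 (edgeR adjusted p = 0.0098), and over all alternatives its adjusted p ran from 0.00155 to 0.211. Col9a3 overlaps Tcfl5 in the RefSeq annotation. Since the strand setting of the counting is not given, how reads in the overlap were counted is not known. Tcfl5 stood at 0.0935 ± 0.0603 CPM in the controls and 0.125 ± 0.0721 CPM with Zac1, too low to be tested.

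Col9a1, the α1 chain, stayed at the edge of detection. It had 1, 2, 0 and 1 counts in the control libraries and 2, 1, 4 and 3 in the Zac1 libraries, with overlapping groups. The pooled ratio of 2.05 had a counting interval of 0.591 to 8.95, so a change was not detectable at this depth. In the fit without the filter its log2 fold change was 0.96 ± 0.90 (edgeR adjusted p = 0.886).

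The 3 chains of collagen IX therefore stood in a different proportion in the 2 groups. The count ratio of Col9a2 to Col9a3 was 0.107, 0.0444, 0.0465 and 0.0714 in the control libraries and 1.84, 1.24, 1.21 and 1.61 in the Zac1 libraries. Col9a2 had fewer counts than Col9a3 in every control library and more in every Zac1 library. On the log2 scale (pseudocount of 0.5 counts) the ratio went from -3.71 ± 0.55 to 0.54 ± 0.29, a difference of 4.25 (two-sided exact permutation p = 0.0286, the smallest that 70 assignments of libraries allow, also 0.0286 after adjustment over the 3 pairs compared). Pairs were compared where both chains averaged at least 5 counts over all 8 libraries. Col9a2 met this limit through its Zac1 libraries, so the ratio restates its rise against Col9a3 and is not a separate result. Per kb of transcript, Col9a1, Col9a2 and Col9a3 stood at 0.00775, 0.0233 and 0.358 CPM per kb in the controls and at 0.0159, 0.989 and 0.662 CPM per kb with Zac1. Col9a1 had the lowest mean of the 3 in both groups. In the controls it and Col9a2 were both at 0 to 3 counts per library, and in the Zac1 libraries its per-length level was 0.0161 times that of Col9a2.

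**Figure D2:**
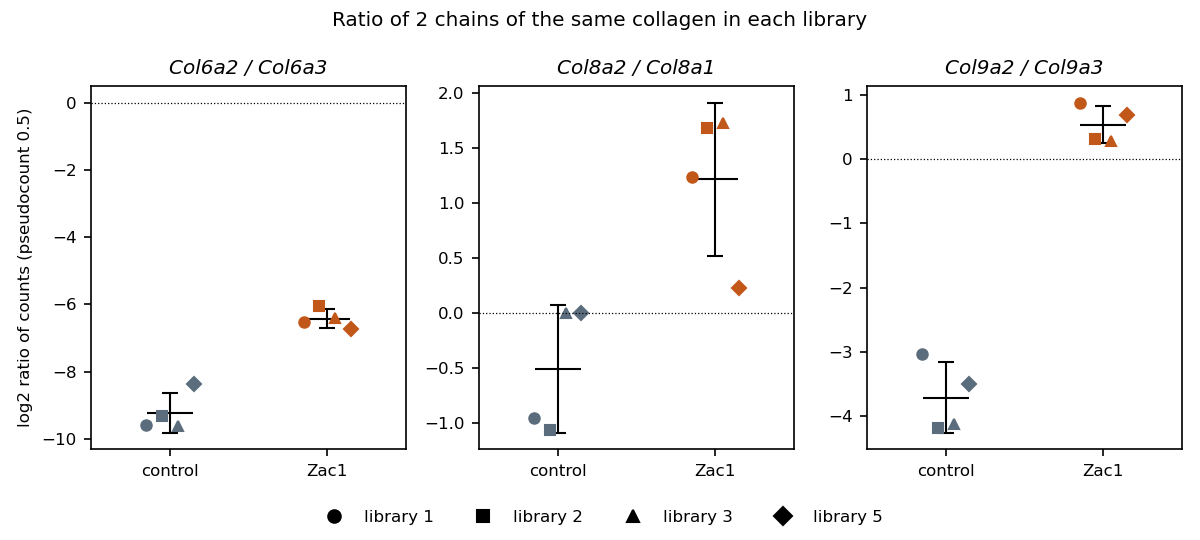
Log2 ratio of the counts of a pair of chains of the same collagen in each library (pseudocount 0.5), with the mean (bar) and SD (whiskers) of the 4 libraries of a group. The groups did not overlap in any of the 3 pairs, and the Col9a2 to Col9a3 ratio moved from below 0 to above 0.

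In collagen VI the long chain was the best expressed of all members and did not pass the test, while its partner Col6a2 rose from near silence. Col6a3, the long α3 chain, stood at 56.3, 63.3, 62.1 and 59.1 CPM in the control libraries and at 58.0, 59.8, 60.2 and 63.8 CPM in the Zac1 libraries. The groups overlapped fully around means of 60.2 ± 3.13 and 60.5 ± 2.44 CPM, and the log2 fold change was 0.01 ± 0.05 (SE, edgeR adjusted p = 0.994). With counts of 1808 to 2700 in every library this was the most precise value among the chains, the counting interval of its pooled ratio being 0.975 to 1.04. Over the alternatives its log2 fold change lay between -0.02 and 0.04, and its sign changed without control library 1 or Zac1 library 5.

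Col6a2, the α2 chain, had 2, 3, 2 and 5 counts in the control libraries and 26, 31, 29 and 25 in the Zac1 libraries. The levels were 0.0585, 0.0852, 0.0628 and 0.164 CPM against 0.621, 0.879, 0.699 and 0.591 CPM, with no overlap. The mean rose 7.54-fold, from 0.0925 ± 0.0488 to 0.698 ± 0.129 CPM (log2 2.88 ± 0.37, SE; edgeR adjusted p = 0.000242), with a counting interval of 4.17 to 15.1 from 12 control counts. Col6a1, the α1 chain, had 3, 1, 1 and 1 counts in the control libraries and 7, 5, 6 and 15 in the Zac1 libraries. Its Zac1 libraries, 0.142 to 0.355 CPM, were all above its control libraries, 0.0284 to 0.0877 CPM, and nearly all of them stayed under the limit for testing. In the fit without the filter Col6a1 had a log2 fold change of 2.09 ± 0.66, which did not pass (edgeR adjusted p = 0.144), and counting error placed the pooled ratio of 4.51 between 1.86 and 13.2.

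Per kb of transcript, Col6a1, Col6a2 and Col6a3 stood at 0.011, 0.0199 and 5.96 CPM per kb in the control libraries and at 0.0493, 0.15 and 5.98 CPM per kb in the Zac1 libraries. The per-length level of Col6a2 was 0.00334 times that of Col6a3 in the controls and 0.0251 times with Zac1, so the long chain exceeded it by far in both groups. The log2 count ratio of Col6a2 to Col6a3 rose by 2.79 (-9.22 ± 0.59 against -6.43 ± 0.28; two-sided exact permutation p = 0.0286, adjusted p = 0.0286 over the 3 pairs). With Col6a3 at the same level in both groups this difference is the change of Col6a2 given above, and Col6a2 too met the limit for comparison through its Zac1 libraries. Pairs with Col6a1 (6 control and 33 Zac1 counts) or Col9a1 missed the limit. Another long chain of this family, Col6a6, which was chosen after its values were seen, had 10.1 ± 0.617 CPM in the controls and 9.83 ± 0.849 CPM with Zac1 (log2 -0.03 ± 0.09, SE), or 1.15 and 1.12 CPM per kb. The remaining long chains, Col6a4 and Col6a5, were at 0.0974 and 0.117 CPM in the controls and at 0.0741 and 0.122 CPM with Zac1.

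**Figure D3:**
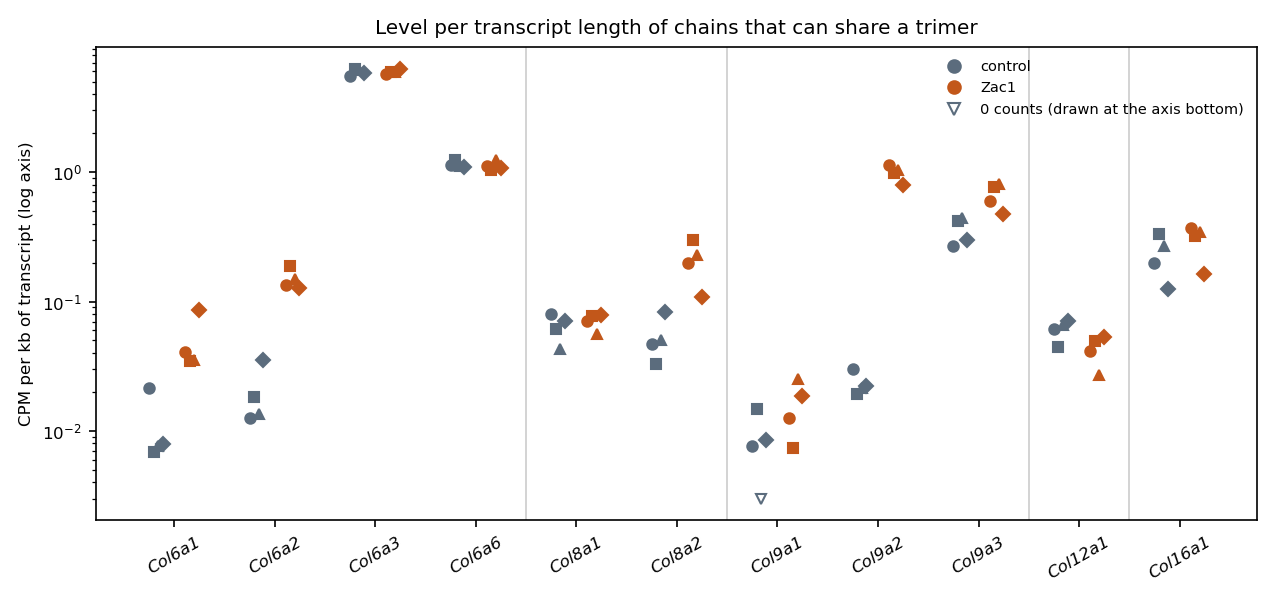
Level per kb of the longest protein-coding transcript (log axis) of the members and of Col6a6 in each library, grouped by collagen type. Col6a3 lies near 6 CPM per kb in both groups, above Col6a1 and Col6a2, and Col9a2 crosses from below Col9a3 in the control libraries to above it in the Zac1 libraries.

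Both chains of collagen VIII were expressed at low levels, and 1 of them changed. Col8a2 stood at 0.205, 0.142, 0.220 and 0.360 CPM in the control libraries and at 0.860, 1.30, 0.988 and 0.473 CPM in the Zac1 libraries. The groups did not overlap, but the libraries numbered 5 lay nearest to each other, being the highest control and the lowest Zac1 library. The mean rose 3.91-fold, from 0.232 ± 0.0919 to 0.906 ± 0.344 CPM (log2 1.96 ± 0.37, SE; edgeR adjusted p = 0.00749). Without both libraries numbered 5 the log2 fold change was 2.46 (edgeR adjusted p = 0.000303). Col8a1 had 0.409, 0.313, 0.220 and 0.360 CPM in the controls and 0.359, 0.397, 0.289 and 0.402 CPM with Zac1. These groups overlapped, and the log2 fold change was 0.14 ± 0.30 (SE, edgeR adjusted p = 0.976), with a counting interval of the ratio of 0.732 to 1.68.

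The count ratio of Col8a2 to Col8a1 was 0.5, 0.455, 1.0 and 1.0 in the control libraries and 2.4, 3.29, 3.42 and 1.18 in the Zac1 libraries. Col8a2 thus had at most as many counts as Col8a1 in every control library and more in every Zac1 library. The log2 ratio differed by 1.72 between the groups (two-sided exact permutation p = 0.0286, adjusted p = 0.0286 over the 3 pairs), which with Col8a1 not called again holds the change of Col8a2. Per kb of transcript, Col8a1 and Col8a2 stood at 0.0637 and 0.0535 CPM per kb in the controls and at 0.0708 and 0.209 CPM per kb with Zac1. Col10a1, the network collagen related to them, was at 0.0616 CPM in the controls and 0.067 CPM with Zac1.

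Collagens XII and XVI, whose trimers hold a single kind of chain, gave no call. Col12a1 had 0.702, 0.511, 0.754 and 0.818 CPM in the control libraries and 0.478, 0.567, 0.313 and 0.615 CPM in the Zac1 libraries. Its lower mean with Zac1, 0.493 ± 0.133 against 0.696 ± 0.132 CPM, came with overlapping groups and did not pass (log2 -0.49 ± 0.27, SE; edgeR adjusted p = 0.771). Col16a1 had 1.02, 1.73, 1.41 and 0.654 CPM in the controls and 1.94, 1.67, 1.78 and 0.851 CPM with Zac1. Libraries numbered 5 were the lowest of both groups, and the log2 fold change of 0.36 ± 0.30 (SE) did not pass (edgeR adjusted p = 0.928). Col16a1 overlaps the noncoding genes Gm12963 and Gm46871 in the RefSeq annotation, and how reads there were counted is not known either.

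**Figure D4:**
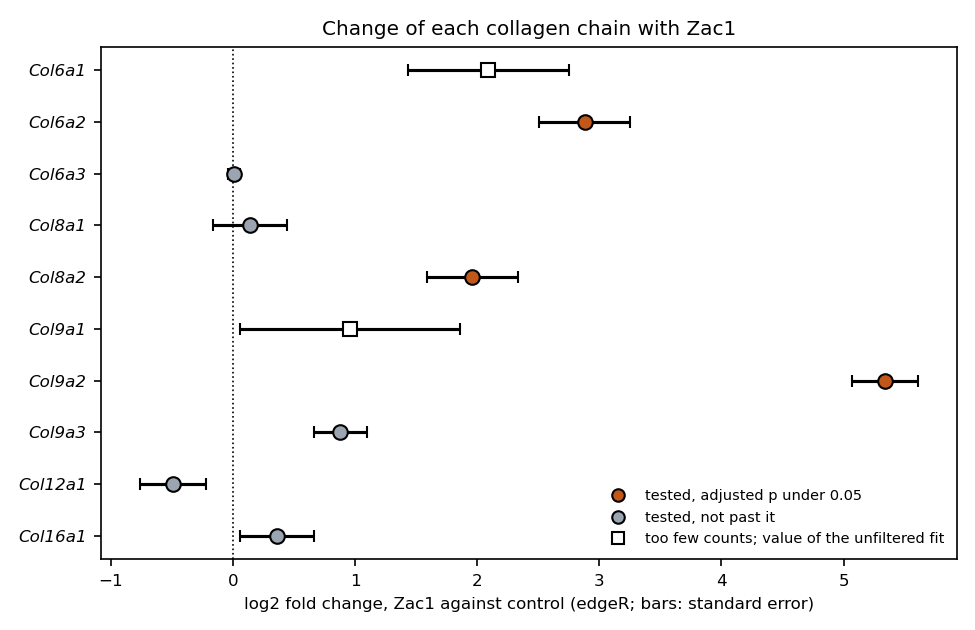
Log2 fold change of each chain, Zac1 against control, with its standard error. Filled circles are tested chains (orange where called) and open squares are the 2 chains with too few counts, taken from the fit without the filter, so that Col9a2 at 5.34, Col6a2 at 2.88 and Col8a2 at 1.96 are the called values.

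In control cells the order of the levels per kb of transcript was Col6a3 (5.96 ± 0.309), Col9a3 (0.358 ± 0.0862), Col16a1 (0.232 ± 0.09), Col8a1 (0.0637 ± 0.0158), Col12a1 (0.0605 ± 0.0115), Col8a2 (0.0535 ± 0.0212), Col9a2 (0.0233 ± 0.00462), Col6a2 (0.0199 ± 0.0105), Col6a1 (0.011 ± 0.00695) and Col9a1 (0.00775 ± 0.00607 CPM per kb). The ranges of the 4 libraries overlapped between each chain and the next in this order, except between Col6a3 and Col9a3, Col16a1 and Col8a1, and Col8a2 and Col9a2. In Zac1 cells Col9a2 (0.989 ± 0.147) came after Col6a3 (5.98 ± 0.241), ahead of Col9a3 (0.662 ± 0.156), Col16a1 (0.30 ± 0.0932), Col8a2 (0.209 ± 0.0794) and Col6a2 (0.15 ± 0.0278 CPM per kb). Here too the ranges overlapped between neighbours in the order, except between Col6a3 and Col9a2, and Col9a3 and Col16a1.

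Other chains of these families were read from the same fit. The list held 8 genes with counts, of which 4 were tested and 0 were called by edgeR, DESeq2 or limma-voom, with 1 higher at an unadjusted p under 0.05 and a median log2 fold change of -0.03. That 1 was Col22a1, a fibril-associated collagen of tissue junctions, at 1.01 ± 0.127 CPM in the controls and 1.40 ± 0.198 CPM with Zac1 (log2 0.47, edgeR adjusted p = 0.481). Col20a1, a better expressed fibril-associated chain chosen after its values were seen, had 8.37 ± 1.19 and 8.0 ± 0.92 CPM.

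The enzymes and chaperones that build collagens in the endoplasmic reticulum gave no calls. Of the genes of folding and modification 0 of 18 tested were called by edgeR, DESeq2 or limma-voom, 0 had an unadjusted p under 0.05, and the median log2 fold change was -0.02. The smallest p was that of Leprel4 (log2 -0.16, edgeR adjusted p = 0.806), a partner of the lysyl hydroxylation machinery. Serpinh1, the collagen chaperone HSP47 (chosen after its values were seen), had 2, 0, 2 and 2 counts in the control libraries and 6, 3, 3 and 9 in the Zac1 libraries, and was too low to be tested. In the secretion list 0 of 12 were called by the same 3 tools, with 1 higher at an unadjusted p under 0.05 and a median of -0.02. The gene with that p was Creb3l1, a transcription factor of the secretory pathway, whose log2 fold change was 0.51 ± 0.20 (SE, edgeR adjusted p = 0.451).

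Processing and cross-linking enzymes gave 2 called of 8 tested, both higher, with a median log2 fold change of -0.01, where 2.15% of all tested genes were called higher. Pcolce, which enhances removal of the procollagen C-propeptide, went from 0.774 ± 0.255 to 1.63 ± 0.272 CPM (log2 1.08 ± 0.24, SE; edgeR adjusted p = 0.0289). It lost its call without control libraries 1, 2 or 5 or Zac1 libraries 1, 2 or 3 (edgeR adjusted p = 0.0543 to 0.0986). Adamts3, a procollagen N-propeptidase, went from 0.164 ± 0.11 to 0.639 ± 0.314 CPM with overlapping groups (log2 1.97 ± 0.48, SE; edgeR adjusted p = 0.0469). Only 1 of its 4 control libraries reached the filter's limit, so it entered the test through the Zac1 libraries. It was not called by limma-voom (adjusted p = 0.0798), nor without control libraries 1, 2 or 3 or Zac1 libraries 1, 2 or 3 (edgeR adjusted p = 0.0597 to 0.173).

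Among collagen receptors 1 of 10 tested was called higher (2.15% of all tested genes), with a median log2 fold change of -0.01. This was Gpr126, an adhesion receptor reported to bind collagen, which rose from 0.186 ± 0.0902 to 0.887 ± 0.538 CPM (log2 2.23 ± 0.48, SE; edgeR adjusted p = 0.0254). It too had 1 of 4 control libraries at the filter's limit. Its call was lost in limma-voom (adjusted p = 0.0547), without control libraries 2, 3 or 5 (edgeR adjusted p = 0.0742 to 0.0976) and without both libraries numbered 5 (edgeR adjusted p = 0.149). Cspg4, the NG2 proteoglycan that binds collagen VI (chosen after its values were seen), stood at 0.016 ± 0.0185 CPM in the controls and 0.0987 ± 0.0947 CPM with Zac1, and Antxr1, also reported to bind collagen VI, at 2.50 ± 0.481 and 2.39 ± 0.238 CPM.

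Of the matrix partners 7 of 18 were tested and 2 were called, both higher (2.15% of all tested genes), with a median log2 fold change of 0.90 that the filter raises, since 0 of 4 control libraries of Tnxb, 1 of Hspg2 and 2 of Col2a1 reached its limit. DESeq2 called 4 and limma-voom 2. Without the filter edgeR called 4 of the 16 with any counts, against 2.11% of genes. Col2a1, the main chain of the cartilage fibril on which collagen IX sits, had 0.146, 0.654, 0.283 and 0.425 CPM in the controls and 1.82, 2.38, 2.94 and 2.36 CPM with Zac1 (log2 2.64 ± 0.30, SE; edgeR adjusted p = 0.000105). Tnxb, a tenascin that binds fibril-associated collagens, rose from 0.219 ± 0.0647 to 1.63 ± 0.341 CPM (log2 2.87 ± 0.28, SE; edgeR adjusted p = 2.02e-05). The other chains of that cartilage fibril, chosen after their values were seen, stood at 37.6 ± 2.05 and 35.8 ± 1.45 CPM for Col11a1 and at 4.40 ± 0.675 and 8.22 ± 2.48 CPM for Col11a2. The Col11a2 difference did not pass in edgeR (adjusted p = 0.073). In the Zac1 libraries Col2a1 stood at 0.465 CPM per kb, beside 0.989 CPM per kb for Col9a2. Hspg2, the basement membrane proteoglycan perlecan, stood at 0.276 ± 0.18 and 0.74 ± 0.141 CPM and was called by DESeq2 and in the fit without the filter (edgeR adjusted p = 0.0321), but not after the filter (0.0727). Nid1, the basement membrane linker nidogen, had 2 control and 35 Zac1 counts, too low to be tested, and was called without the filter (edgeR adjusted p = 0.0226). These lists were drawn up with earlier results of these data known.

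**Figure D5:**
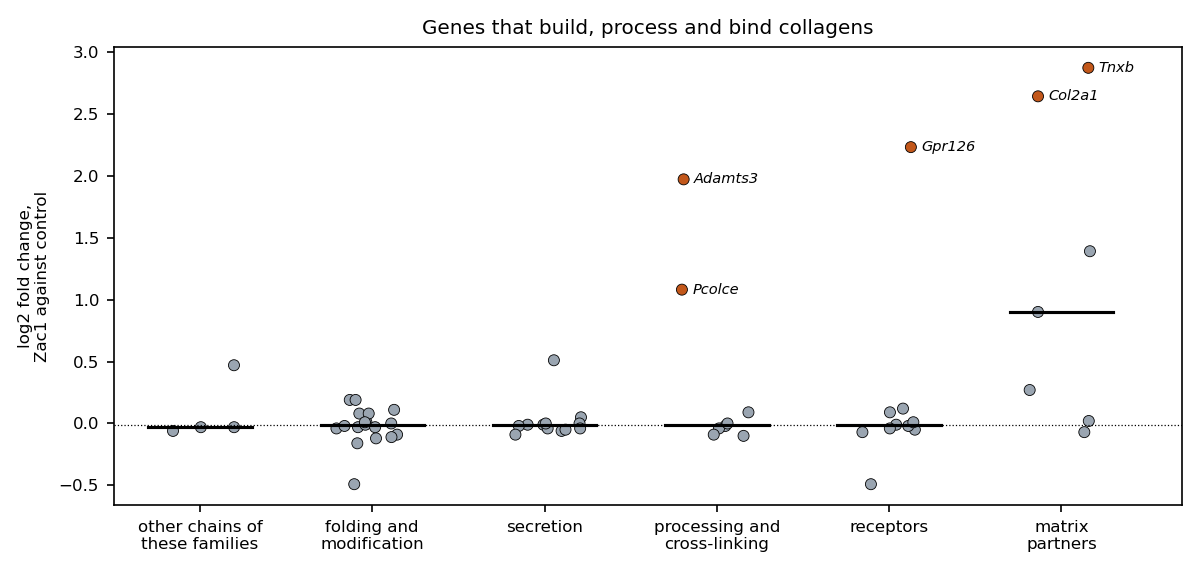
Log2 fold change of each tested gene of the 6 lists of related chains, collagen assembly and collagen partners, with called genes in orange and named, the list's median as a bar and the median of all tested genes dotted. The called genes are Pcolce, Adamts3, Gpr126, Col2a1 and Tnxb, and the medians of 5 lists lie within 0.03 of 0.

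The genes next to the members on the chromosome were compared from the RefSeq order on GRCm38.p6. Of 15 tested protein-coding neighbours that are not members themselves 1 was called, and it was higher, where 2.15% of all tested genes were called higher. Their median log2 fold change was -0.01. Both neighbours of Col9a2, Smap2 and Zmpste24, had log2 fold changes of 0.01 ± 0.05 and -0.08 ± 0.04 (SE). Zmpste24 was lower in all Zac1 libraries than in any control library, at 229 ± 4.63 against 242 ± 8.81 CPM, and was not called (edgeR adjusted p = 0.781). The neighbours of Col8a2, Trappc3 and Adprhl2, had -0.12 ± 0.10 and 0.02 ± 0.10. Col6a2 and Col6a1 are next to each other on chromosome 10, and Pcbp3 on the far side of Col6a1 had -0.11 ± 0.06, while Ftcd beyond Col6a2 was too low to be tested. The called neighbour was Bai2, an adhesion receptor gene next to Col16a1, which rose from 0.26 ± 0.0613 to 1.05 ± 0.237 CPM without overlap (log2 2.0 ± 0.28, SE; edgeR adjusted p = 0.000591), beside 0.36 ± 0.30 for Col16a1.

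Markers of beta cells and of collagen-making cells were read beside these results. All 14 beta cell markers were tested, among them both insulin genes, and 0 were called by edgeR, DESeq2 or limma-voom, with 0 at an unadjusted p under 0.05. The smallest p was that of the transcription factor Neurod1 (174 ± 6.03 and 165 ± 7.48 CPM). Of 10 fibroblast markers 3 were tested and 0 called, and their summed level was 2.84 to 3.66 CPM in the controls and 3.17 to 3.38 CPM with Zac1. Lum had 0 counts in all libraries, Vim stood at 0.0144 and 0.0751 CPM (2 and 12 counts), and Thy1, with the smallest p, at 1.09 ± 0.22 and 0.834 ± 0.225 CPM. Pdgfrb had 2 control and 14 Zac1 counts (counting interval of the ratio 1.32 to 52.0) and Pdgfra 6 and 16 with no overlap between the groups, all too low to be tested. Going the other way, Acta2 had 4 control and 1 Zac1 counts and Col3a1 3 and 0. Dcn had 7 and 10, and these too were too low to be tested. Of 10 cartilage markers 3 were tested and 0 called, with a summed level of 18.7 to 25.1 CPM in the controls and 17.2 to 26.5 CPM with Zac1, nearly all of it Hapln1 (20.1 ± 3.23 CPM in the controls). The cartilage regulator Sox9 was at 0.0301 ± 0.0414 CPM in the controls and 0.018 ± 0.023 CPM with Zac1, and Runx2, with the smallest p, at 1.09 ± 0.113 and 1.30 ± 0.32 CPM. Some other cartilage genes under the limit for testing had more counts with Zac1, which the summed level does not show. Acan, the large cartilage proteoglycan, had 9 control and 44 Zac1 counts (counting interval of the ratio 1.93 to 9.33). Matn1 had 5 and 25 (1.54 to 13.7), Lect1 5 and 26 (1.61 to 14.2) and Comp 18 and 42 (1.08 to 3.53), and all 4 overlapped between the groups. In the fit without the filter none of these 4, Pdgfra, Pdgfrb or Vim passed (edgeR adjusted p of 0.103 for Acan and higher for the others). Matn3, also too low to be tested, did not rise, with 16 control and 15 Zac1 counts. The part of these markers in the collagen results was not tested. The endothelial list summed to 2.07 to 2.46 and 2.12 to 2.62 CPM and the immune list to 5.71 to 6.46 and 4.71 to 6.95 CPM, with 0 of 2 and 0 of 1 tested genes called. Cdh5 had 0 counts throughout, Plvap had a log2 fold change of 0.43 and Cd68 of -0.05, each the smallest p of its list. DESeq2 and limma-voom called 0 genes in these 4 lists as well, and 0 of the tested genes had an unadjusted p under 0.05.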

How the data were processed

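RNA was measured by stranded mRNA sequencing in 8 libraries, grouped by the plasmid in their labels. The authors deposited 1 table of raw read counts for 23100 genes. The submitters' processing notes name the build mm9 and the tools HTSeq 0.6.1p1, TopHat2 2.1.1, Bowtie2 2.2.8, FastQC and bcl2fastq 2.17. They do not name the gene annotation or the strand setting. No gene name was blank and 0 columns were left unmapped.

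The whole table was fitted with edgeR 4.0.16 in R 4.3.3 (filterByExpr with the groups, TMM, robust quasi-likelihood F test, intercept and group), and member rows were read from that fit. The standard error is the size of the fold change over the square root of F. The edgeR fit and the pair test were tried on simulated counts. Changed genes there had more control counts than the called chains had here, so rises from near silence were not covered. The pair test was tried on Poisson counts, which spread less than these libraries do. DESeq2 1.42.0, limma-voom (limma 3.58.1), other scalings and filters, a replicate block and leaving out libraries were the alternatives. Chain pairs were compared by exact permutation with scipy 1.17.1 where both chains had a mean of at least 5 counts. Levels per kb use the longest protein-coding transcript of GENCODE vM21, an annotation of another build than the counts. Neighbours were matched by gene ID, which all 10 members had.

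The members and lists were chosen with earlier results of these data known. The genes named are all members, Plagl1, the called genes of each list (or the smallest p where none was called) and the nearest tested protein-coding neighbours. Where another gene is named, the text says that it was picked with its values in view, as were also Col6a4, Col6a5, Col10a1, Antxr1, Hspg2, Nid1, Lum, Vim, Pdgfra, Pdgfrb, Acta2, Col3a1, Dcn, Sox9, Hapln1, Acan, Matn1, Matn3, Lect1, Comp and Cdh5.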

Additional observations from a re-analysis of the deposited data

Results flagged for a closer look

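In 2 of the 26 sets of 4 values examined (each chain in each group, and each compared ratio in each group), 1 library lay far from the other 3 for its group's range. Chance alone would be expected to mark about 1 set in 20 if the values were normally spread and the sets independent. Counts this low are not normally spread, and the ratio sets reuse values of the chains, so that rate does not hold exactly here. Both sets were those of Col6a1. Control library 1 had 0.0877 CPM of Col6a1, where the other control libraries had 0.0284 to 0.0327 CPM, a difference of 3 counts against 1. Zac1 library 5 had 0.355 CPM of Col6a1, where the other Zac1 libraries had 0.142 to 0.167 CPM, or 15 counts against 5 to 7.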

How the results depend on the processing

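Col9a2 was called in all 16 alternatives, and Col6a2 and Col8a2 in all 15 in which they could be tested, with adjusted p of at most 2.27e-06, 0.00232 and 0.0398. The count of called chains was 3 or 4 in all alternatives but 1: with a mean of at least 50 counts only 4 chains could be tested and 1 was called, Col9a2. Col9a3 was called in 6 of 16. The log2 fold change of Col6a3, not called in any, ran from -0.02 to 0.04 with 1 library left out and was -0.02 without control library 1, -0.01 without Zac1 library 5 and -0.02 without both libraries numbered 5. The chain ratios kept their direction in all 12 alternatives each, with differences of 3.66 to 4.48 (Col9a2 to Col9a3), 2.32 to 3.18 (Col6a2 to Col6a3) and 1.54 to 2.22 (Col8a2 to Col8a1). The direction is no check where libraries are left out, since groups that do not overlap cannot reverse. The replicate block gives the same mean difference as the main comparison by design. With 3 libraries against 4 the smaller one-sided p, doubled as here, is at least 0.0571, so only the values were compared.

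Over all genes, 308 higher and 5 lower were called. With the same filter on low counts DESeq2 called 8 lower and limma-voom 5. Among the 12219 genes that averaged 50 counts or more, edgeR called 99 higher and 0 lower. At an unadjusted p under 0.05 these were 510 higher and 177 lower. Leaving out 1 library gave 260 to 357 higher and 1 to 5 lower. With the replicate block they were 512 and 116, the share of higher calls going from 98.4% to 81.5%, 4 chains were called, and Col9a3 had an edgeR adjusted p = 0.00155. The labels do not say whether the numbers mark pairs, and they were not taken as pairs. Deviations of same-numbered libraries correlated at 0.483, 0.0717, 0.32 and 0.531 over 12219 genes, and those of other pairs at -0.498 to 0.19. Each Zac1 library correlated best with the control library of its number, for Zac1 library 2 only narrowly (0.0651 with control library 5). Control library 2 correlated best with Zac1 library 3 (0.19). A shared effect of the numbers is therefore not excluded, and the calls given above depend on this choice. The causes of these changes were not tested. Depth limits Col6a1 and Col9a1, with 6 and 4 control counts in all.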

Other observations

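Zac1 library 5 stood at an edge of its group for most chains. It was the lowest of the 4 Zac1 libraries for 5 of the 10 chains (Col6a2, Col8a2, Col9a2, Col9a3 and Col16a1) and the highest for 4 (Col6a1, Col6a3, Col8a1 and Col12a1). The 3 called chains are all among those at the lower edge, and Col6a1, the genomic neighbour of Col6a2, is at the upper. Other libraries were often at an edge too, such as control library 2, the lowest of its group for 4 chains and the highest for 3. The share of all genes with Zac1 library 5 at an edge was not counted. Over all genes the libraries numbered 5 also stood furthest from their groups, so the edges cannot be read as particular to these chains. Plagl1 in that library, 4370 CPM, lay within the 4120 to 5790 CPM of its group.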
